A study of Mus musculus with 6 samples.

Results

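The SP and KLF genes encode transcription factors of the specificity protein and Krüppel-like families, and 10 of them were followed here in smooth muscle cells of the mouse pulmonary artery (mPASMCs) after knockdown of the long noncoding RNA *Snhg18*. The members were *Sp1*, *Sp3*, *Sp4*, *Klf2*, *Klf4*, *Klf5*, *Klf6*, *Klf9*, *Klf10* and *Klf15* and were taken by gene symbol out of 55487 genes. Sp1 is the factor that the study examined at the *Snhg18* promoter. The cells were commercial mPASMCs transfected with a negative control siRNA (si-NC, n = 3 libraries) or with the siRNA against *Snhg18* (si-*Snhg18*, n = 3 libraries), and no allele or other agent is named for either group. A single siRNA sequence was used against the mouse transcript, so an effect of that sequence on other RNAs cannot be told apart from the knockdown. The sources used here do not give the oxygen level, the mouse strain or the time after transfection for the sequenced cells, nor whether the libraries of a group came from separate cultures, so p-values measure the spread between these libraries.

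Proteins of both families bind GC-rich DNA through C2H2 zinc fingers near their carboxyl end. SP factors such as Sp1 and Sp3 occupy GC boxes in the promoters of many widely expressed genes, whereas KLF factors bind GC boxes and the related CACCC box and often respond to serum, shear stress, hormones or injury. In arterial smooth muscle, Klf4 is known as a repressor of contractile genes and Klf5 as a promoter of growth, while Klf2 is best known from endothelium under flow and Klf15 as a factor that opposes remodeling.

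The libraries held between 18097718 and 25988746 counted reads, with the lowest total in si-*Snhg18* 3. The target check held in every library, since *Snhg18* was at 23.5, 22.4 and 22.2 CPM (reads relative to the TMM-normalized size of each library) in si-NC 1 to 3 and at 10.6, 11.2 and 9.97 CPM in si-*Snhg18* 1 to 3, so that 46.7% of the si-NC mean remained. The smooth muscle markers *Acta2*, *Tagln*, *Myh11*, *Cnn1*, *Des* and *Myocd* were all tested and summed to between 1598 and 1750 CPM in si-NC and between 1070 and 1693 CPM in si-*Snhg18* libraries. Endothelial markers summed to between 12.4 and 14 CPM in si-NC and between 13.3 and 15.4 CPM in si-*Snhg18*, with *Pecam1* and *Tie1* too low to test, and leukocyte markers to between 7.23 and 10.5 and between 6 and 12.1 CPM, with *Cd3e* at 0. Fibroblast markers summed to between 521 and 584 CPM in si-NC and between 380 and 505 CPM in si-*Snhg18*, and epithelial markers to between 7.24 and 22.7 and between 1.19 and 7.42 CPM. The libraries numbered 2 stood apart from the others of their group for several members, which is described with its values below. Same-numbered libraries deviated together across genes, and the values of a second fit, in which that number is a block, are therefore given beside results whose call differs.

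Promoter sequence is shown first, because GC boxes are the letters these factors bind and several members carry them in their own promoters. RefSeq windows on GRCm38.p6, from 250 bases before to 50 bases after the transcript start, were found for 8 of the 10 members, with no entry for *Klf5* and *Klf10*. The windows below belong to the members with the largest differences in the KLF and SP families, to *Sp1*, and to *Snhg18*, whose promoter the study examined for Sp1. They lie at chr4:55532426-55532725 (minus strand) for *Klf4*, chr8:72318812-72319111 (plus strand) for *Klf2*, chr12:118301391-118301690 (minus strand) for *Sp4*, chr15:102406066-102406365 (plus strand) for *Sp1* and chr15:32244613-32244912 (minus strand) for *Snhg18*. Capitals mark the GC box, GGGCGG or its reverse complement CCGCCC, with neighbouring matches allowed to overlap.
*Klf4*: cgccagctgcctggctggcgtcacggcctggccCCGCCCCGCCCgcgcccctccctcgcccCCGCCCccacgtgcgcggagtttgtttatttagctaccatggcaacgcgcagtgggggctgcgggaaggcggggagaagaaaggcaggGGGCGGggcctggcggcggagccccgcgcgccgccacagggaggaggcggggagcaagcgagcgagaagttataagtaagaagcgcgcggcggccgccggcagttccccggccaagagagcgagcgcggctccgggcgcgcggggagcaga
*Klf2*: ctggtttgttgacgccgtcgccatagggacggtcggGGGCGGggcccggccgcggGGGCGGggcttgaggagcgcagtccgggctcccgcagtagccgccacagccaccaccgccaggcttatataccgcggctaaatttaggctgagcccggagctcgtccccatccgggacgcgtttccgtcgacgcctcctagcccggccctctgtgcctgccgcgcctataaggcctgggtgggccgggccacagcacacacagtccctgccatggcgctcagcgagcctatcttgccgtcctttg
*Sp4*: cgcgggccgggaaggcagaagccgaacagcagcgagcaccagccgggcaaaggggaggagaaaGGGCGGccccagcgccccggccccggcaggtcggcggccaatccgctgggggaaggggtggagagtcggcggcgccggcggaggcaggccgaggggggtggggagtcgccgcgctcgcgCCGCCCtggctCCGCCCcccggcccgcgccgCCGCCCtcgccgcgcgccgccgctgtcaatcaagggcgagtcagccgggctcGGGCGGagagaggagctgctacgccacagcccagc
*Sp1*: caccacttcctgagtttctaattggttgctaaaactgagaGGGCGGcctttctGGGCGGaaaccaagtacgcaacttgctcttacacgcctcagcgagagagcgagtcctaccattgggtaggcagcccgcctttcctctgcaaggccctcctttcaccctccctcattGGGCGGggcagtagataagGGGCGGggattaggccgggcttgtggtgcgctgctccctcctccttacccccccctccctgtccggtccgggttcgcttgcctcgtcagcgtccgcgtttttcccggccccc
*Snhg18*: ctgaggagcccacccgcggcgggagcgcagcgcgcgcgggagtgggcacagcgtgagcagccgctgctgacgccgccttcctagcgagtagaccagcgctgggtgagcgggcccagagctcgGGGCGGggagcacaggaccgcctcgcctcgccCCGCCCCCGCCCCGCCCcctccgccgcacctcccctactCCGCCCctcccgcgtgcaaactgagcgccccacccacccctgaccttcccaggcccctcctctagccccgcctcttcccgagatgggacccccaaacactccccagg

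The *Snhg18* window held 5 GC boxes and the *Sp4* window 5, against 4 each in the *Sp1* and *Klf4* windows and 2 in that of *Klf2*. Of the 9 member windows, 8 held at least 1 GC box, *Klf9* being the exception, and *Sp3* had both of its annotated starts counted. A GC box was present for 68.5% of the 10536 tested genes with a window and in 35.7% of all 32851 mouse windows of the same length, and the member windows were rich in G and C, from 61.7% in *Sp1* to 78.7% in *Sp4* against a median of 52.7% for all windows. The CACCC box (CACCC or GGGTG) was present 4 times in *Snhg18*, 2 times in *Sp4* and once each in *Sp1*, *Klf2*, *Klf9*, *Klf15* and the second window of *Sp3*, and 66.8% of tested genes and 57.5% of all windows held it. The CCAAT box (CCAAT or ATTGG), the site of the NF-Y complex, was found 4 times in *Klf6* and 3 times each in *Sp1* and *Klf9* and once each in *Sp4*, *Klf15* and the first window of *Sp3*, against 43.2% of tested genes and 37.4% of all windows with any. The E-box CACGTG occurred 3 times in *Klf15* and once each in *Klf4* and *Klf6*, against 11.7% of tested genes and 7.15% of all windows. These are matches of letters and not measured binding.

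**Figure D1:**
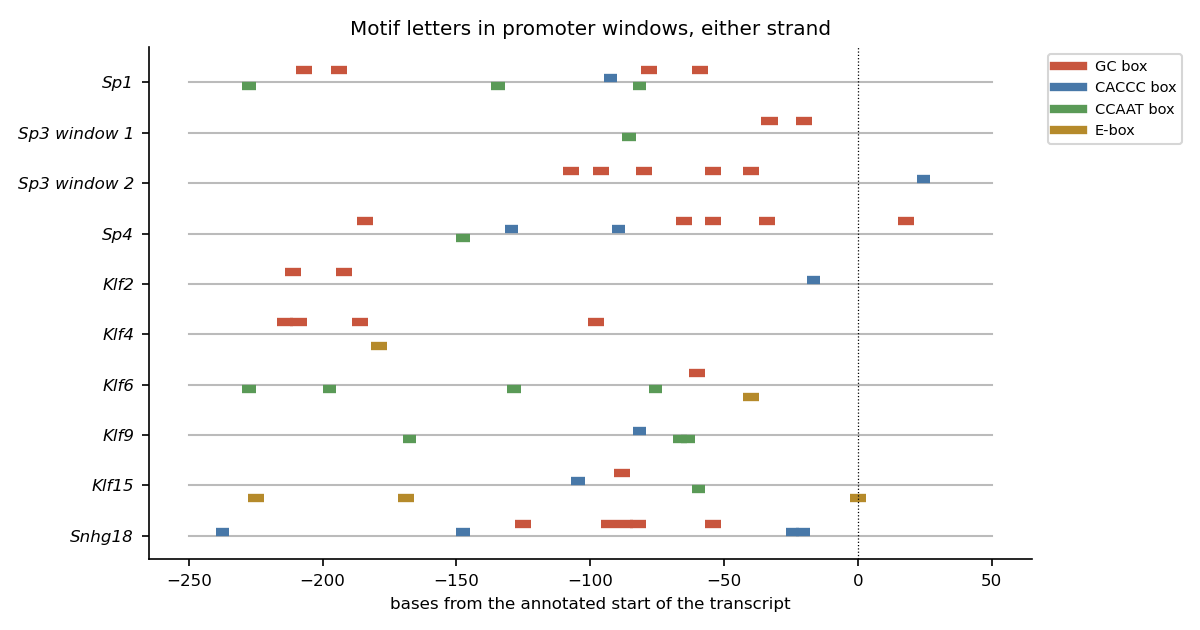
Positions of the GC, CACCC and CCAAT boxes and the E-box on either strand in the promoter windows of the members and of *Snhg18*, in bases from the annotated transcript start (dotted line). GC boxes lie before the start in every window that has them, apart from 1 in *Sp4*.

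Levels of different genes were compared as CPM per kb of exon length. *Klf6*, a zinc-finger factor induced early after injury and growth stimuli, had the highest level in si-NC cells, 51.7 ± 6.22 CPM per kb (SD, n = 3), and *Klf4* followed at 42 ± 5.81 (SD, n = 3), with ranges that overlapped. *Klf9*, a hormone-responsive factor, was at 21.6 ± 4.63 and *Sp3* at 19.5 ± 1.86 CPM per kb (SD, n = 3 each), again overlapping. *Klf2* was next at 15.2 ± 1.86, above *Sp1* at 10.1 ± 0.644 CPM per kb (SD, n = 3 each) in all libraries, and the range of *Sp1* overlapped that of *Klf10* at 7.96 ± 3.9 (SD, n = 3). The lowest levels were those of *Klf5* at 1.73 ± 0.271, *Klf15* at 1.21 ± 0.258 and *Sp4* at 0.725 ± 0.157 CPM per kb (SD, n = 3 each), and only *Klf5* and *Klf15* overlapped among them. The highest member was thus 71.3 times the lowest.

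In si-*Snhg18* cells *Klf6* remained first at 48.9 ± 10.3 CPM per kb (SD, n = 3), but its range no longer overlapped that of *Klf4*, at 27.5 ± 3.58 (SD, n = 3), which overlapped *Klf9* at 24 ± 7.85 (SD, n = 3) instead. *Klf2*, at 8.18 ± 2.66 CPM per kb (SD, n = 3), had a range that overlapped those of *Sp1*, at 8.9 ± 0.503, and *Klf10*, at 8.12 ± 4.41 (SD, n = 3 each). At the low end *Sp4*, at 1.15 ± 0.292 CPM per kb (SD, n = 3), overlapped *Klf15*, at 1.06 ± 0.084 (SD, n = 3). In both conditions the levels split, with *Klf5*, *Klf15* and *Sp4* below every library value of the other 7.

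**Figure D2:**
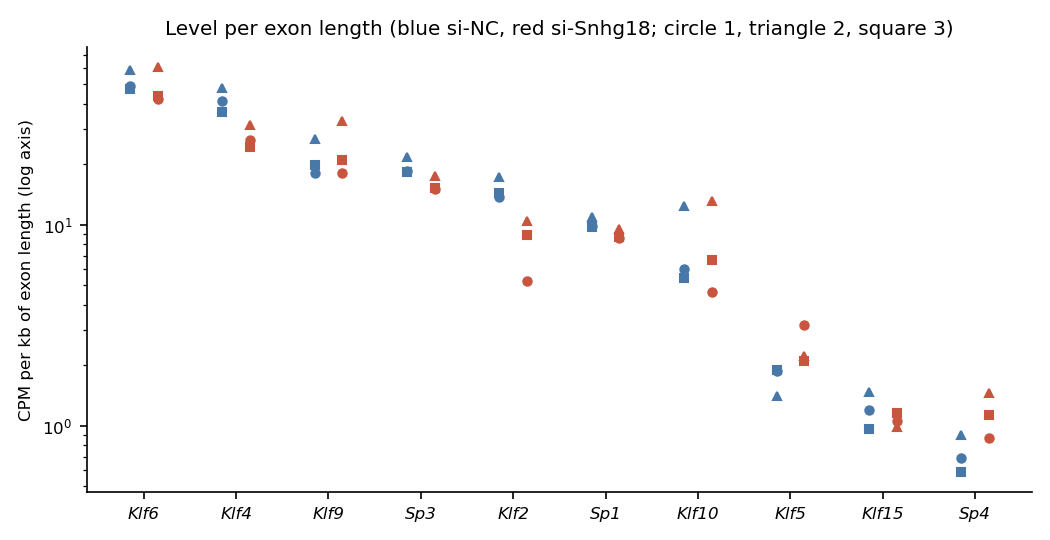
Level of each member per kb of exon length on a logarithmic axis, with blue symbols for si-NC and red for si-*Snhg18*, and circles, triangles and squares for libraries 1, 2 and 3. *Sp1*, *Sp3*, *Klf2* and *Klf4* sit lower in red than in blue in all libraries, and *Klf5* sits higher. *Klf6* has the highest mean in both groups.

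*Klf4* was the only member that passed the test over all genes, and it was lower in si-*Snhg18* cells. Its gene (ENSMUSG00000003032, chromosome 4 from 55527143 to 55532466, minus strand, GRCm38) had 126, 146 and 111 CPM in si-NC 1 to 3 and 80.1, 95.2 and 74.2 CPM in si-*Snhg18* 1 to 3. All si-NC libraries were above all si-*Snhg18* libraries, and the mean fell from 127 ± 17.6 to 83.2 ± 10.8 CPM (SD, n = 3 each), so that 65.3% remained. The log2 fold change was -0.61 with a standard error of 0.13, and the quasi-likelihood test of edgeR gave an adjusted p of 0.0464 (Benjamini-Hochberg over all tested genes). With the replicate block it was also -0.61, with a standard error of 0.06 and an adjusted p of 0.000828. Within same-numbered libraries the log2 difference was -0.65, -0.61 and -0.58, a narrow range beside the spread within each group. Without the block the call was lost in 5 of the 6 edgeR fits that left out 1 library, at an adjusted p between 0.105 and 0.187. It was kept in the fit without si-*Snhg18* 2, at 0.0133. With library totals in place of TMM factors the edgeR adjusted p was 0.0585. In these bulk libraries, fewer cells with *Klf4* mRNA and less *Klf4* mRNA per cell cannot be told apart.

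With 1 of 10 members called, the share among the members was close to that of all 14531 tested genes, of which 7.36% passed in either direction and 3.71% were lower. *Klf4* also passed with a requirement of at least 1.5-fold, as did 3.67% of tested genes, 1.95% lower and 1.72% higher. At an unadjusted p under 0.05 the count was 5 of 10 members and 24.9% of tested genes. In the fit with the replicate block 4 members passed, *Klf4*, *Klf2* and *Sp3* lower and *Sp4* higher, against 27.2% of all tested genes. Groups that do not overlap were seen for 5 members, *Sp1*, *Sp3*, *Klf2* and *Klf4* lower and *Klf5* higher, and for 30.9% of tested genes. The exact permutation test of each of these 5 genes alone gave a two-sided p of 0.1, the smallest that 3 libraries against 3 allow. The direction was the same in 3 of 3 same-numbered pairs for 7 members, those 5 together with *Sp4* and *Klf9*, and for 59.6% of tested genes. *Klf9* is counted there with log2 differences of 0.00209, 0.29 and 0.08, of which the first is almost none. These shares among the members are near or somewhat above those of all genes, and nothing particular to the family is read from them. The median log2 fold change of the 10 members was -0.13, with 6 below 0 and 4 above, beside 0.01 for all tested genes.

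**Figure D3:**
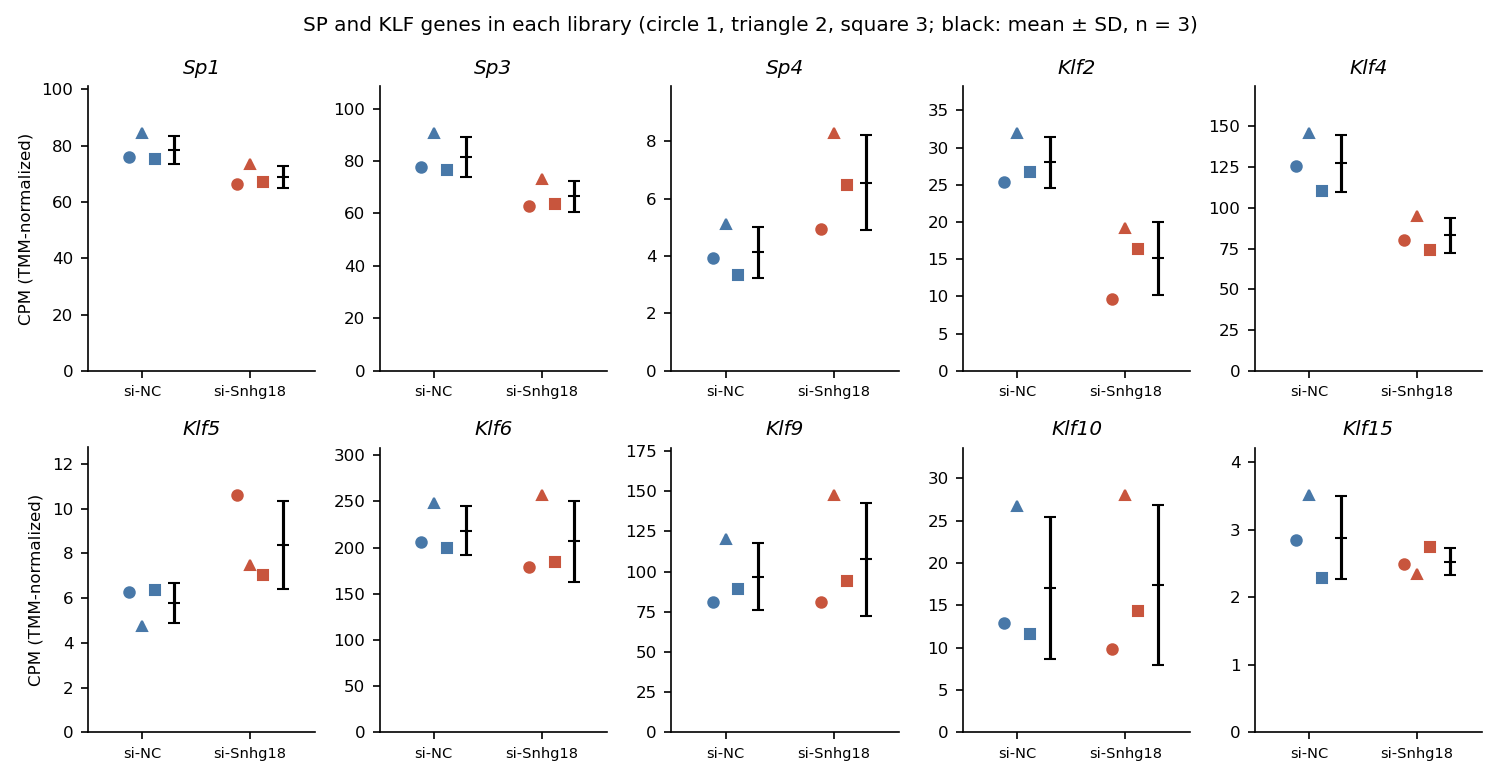
Normalized CPM of the 10 members in each library, on axes that start at 0, with blue for si-NC, red for si-*Snhg18*, symbols for the library number, and the mean with its SD in black. *Sp1*, *Sp3*, *Klf2*, *Klf4* and *Klf5* show separate groups. For every member but *Klf5* and *Klf15* the triangle of library 2 is the highest of its group in both groups.

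*Klf2*, the flow-responsive relative of *Klf4* (ENSMUSG00000055148, chromosome 8 from 72319033 to 72321656, plus strand), had the largest difference of any member. It was at 25.4, 31.9 and 26.7 CPM in si-NC 1 to 3 and at 9.65, 19.2 and 16.4 CPM in si-*Snhg18* 1 to 3. The groups did not overlap, and si-*Snhg18* 1 was the lowest library by a wide margin. The log2 fold change of -0.89 missed the threshold in edgeR, at an adjusted p of 0.0896 and a standard error of 0.25, while with the replicate block it was -0.93 with a standard error of 0.15 and an adjusted p of 0.00473. *Klf2* also passed with DESeq2 (adjusted p of 0.0118) and in edgeR without si-*Snhg18* 2 (0.0237). It did not pass in edgeR without any other single library (0.0891 to 0.24) or with library totals in place of TMM factors (0.11). Within same-numbered libraries the log2 difference was -1.39, -0.73 and -0.70. The summed endothelial markers overlapped between the groups, at 12.4 to 14 CPM and 13.3 to 15.4 CPM, but most of each sum was *Cdh5*. Among the others *Tek* was lower in all si-*Snhg18* libraries, with a log2 fold change of -1.47 (edgeR adjusted p of 0.1001, and 0.0341 with the block), and *Kdr* had one of 1.04 with overlapping groups (adjusted p of 0.247). *Tek* was the 1 of the 4 tested endothelial markers with a negative fold change, while 3 had positive ones. Their part in the *Klf2* difference was not tested. The ratio of *Klf2* to *Klf4* per exon length was 0.362 ± 0.0329 in si-NC and 0.297 ± 0.0879 in si-*Snhg18* (SD, n = 3 each, exact permutation p = 0.5, adjusted p = 0.6 over 6 ratios), so a difference between the 2 genes in the size of the effect was not shown.

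*Klf5*, which is known to promote proliferation of vascular smooth muscle (ENSMUSG00000005148, chromosome 14 from 99298691 to 99315036, plus strand), differed in the other direction. Its levels were low, with 6.26, 4.74 and 6.36 CPM in si-NC 1 to 3 and 10.6, 7.46 and 7.01 CPM in si-*Snhg18* 1 to 3, from between 116 and 268 reads. The groups were separate by a small gap, and the log2 fold change of 0.53 (standard error 0.22) did not pass in edgeR's test without the block (adjusted p = 0.196) or with it (adjusted p = 0.0574). Taken as a ratio within each library, *Klf4* per *Klf5* was 22.2, 34 and 19.3 in si-NC 1 to 3 and 8.36, 14.1 and 11.7 in si-*Snhg18* 1 to 3. Every si-NC ratio was above every si-*Snhg18* ratio, with a log2 difference of -1.13 (exact permutation p = 0.1, the smallest possible, adjusted p = 0.2 over 6 ratios). A ratio within a library does not depend on how libraries are scaled to each other.

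Among the SP genes, *Sp1* (ENSMUSG00000001280, chromosome 15 from 102406143 to 102436404, plus strand) was at 76.1, 84.4 and 75.4 CPM in si-NC 1 to 3 and at 66.4, 73.5 and 67.1 CPM in si-*Snhg18* 1 to 3. The groups were separate, but by a small margin, and 87.8% of the si-NC mean was present. The log2 fold change of -0.19 (standard error 0.08) did not pass in edgeR's test (adjusted p = 0.205, and 0.0503 with the block), although the difference within same-numbered libraries was even, at -0.20, -0.20 and -0.17. *Sp3*, which binds the same GC boxes and can activate or repress (ENSMUSG00000027109, chromosome 2 from 72936427 to 72980446, minus strand), was at 77.6, 90.5 and 76.5 CPM in si-NC 1 to 3 and at 62.8, 73.1 and 63.5 CPM in si-*Snhg18* 1 to 3. Its groups did not overlap, and its log2 fold change of -0.29, with an edgeR adjusted p of 0.135 and a standard error of 0.10, did not pass without the block. With it the adjusted p was 0.0106 and the standard error 0.06. *Sp3* also passed in edgeR without si-*Snhg18* 2, at an adjusted p of 0.0381. *Sp3* per *Sp1* went from 1.92 ± 0.0594 to 1.78 ± 0.0517 per exon length (SD, n = 3 each, exact permutation p = 0.1, adjusted p = 0.2 over 6 ratios).

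*Sp4*, a relative of Sp1 best known from neurons (ENSMUSG00000025323, chromosome 12 from 118234933 to 118301440, minus strand), was the 1 of the 3 SP members with a positive fold change. It had 3.93, 5.1 and 3.35 CPM in si-NC 1 to 3 and 4.95, 8.27 and 6.47 CPM in si-*Snhg18* 1 to 3, so that si-NC 2 overlapped si-*Snhg18* 1. The difference was positive in 3 of 3 same-numbered pairs, with log2 values of 0.33, 0.70 and 0.95. Its log2 fold change of 0.67 had a standard error of 0.26 and an edgeR adjusted p of 0.174, and with the block it was 0.66 with a standard error of 0.18 and an adjusted p of 0.0353. *Sp4* per *Sp1* was 0.0703, 0.0824 and 0.0605 in si-NC 1 to 3 and 0.101, 0.153 and 0.131 in si-*Snhg18* 1 to 3, a log2 difference of 0.85 with separate groups (exact permutation p = 0.1, adjusted p = 0.2 over 6 ratios). *Sp4* thus remained a small part of the SP mRNA. All SP genes together were at 183 ± 13.9 CPM in si-NC and 159 ± 11.6 CPM in si-*Snhg18* cells, and all KLF genes at 786 ± 63.7 and 771 ± 57.3 CPM (SD, n = 3 each), with no test of these sums.

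*Klf6* (ENSMUSG00000000078, chromosome 13 from 5861482 to 5870394, plus strand), the most abundant member, was at 207, 248 and 200 CPM in si-NC 1 to 3 and at 179, 257 and 184 CPM in si-*Snhg18* 1 to 3. The groups overlapped, and the 95% interval of the log2 fold change ran from -0.47 to 0.31. *Klf9* (ENSMUSG00000033863, chromosome 19 from 23141226 to 23168134, plus strand) was at 81.1, 120 and 89.1 CPM in si-NC 1 to 3 and at 81.2, 148 and 93.9 CPM in si-*Snhg18* 1 to 3, with an interval from -0.46 to 0.76. *Klf10*, an early target of TGF-beta (ENSMUSG00000037465, chromosome 15 from 38291463 to 38300706, minus strand), was at 12.9, 26.7 and 11.6 CPM in si-NC 1 to 3 and at 9.89, 28 and 14.3 CPM in si-*Snhg18* 1 to 3. Its interval, from -1.10 to 1.16, was the widest of the members, so a change of 2-fold in either direction was not resolved without the block. With the block its log2 fold change was -0.000761 with a standard error of 0.14. *Klf15*, which responds to glucocorticoids (ENSMUSG00000030087, chromosome 6 from 90462576 to 90475238, plus strand), had only between 50 and 86 reads, at 2.85, 3.51 and 2.29 CPM in si-NC 1 to 3 and 2.49, 2.35 and 2.74 CPM in si-*Snhg18* 1 to 3. None of these 4 genes passed in edgeR's test, with adjusted p-values of 0.802, 0.753, 0.975 and 0.654, nor with the replicate block.

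For some members the levels differed more between library numbers than between the siRNAs. *Klf10* was higher in library 2 than in the mean of libraries 1 and 3 by 1.12 (log2 CPM) among si-NC and by 1.23 among si-*Snhg18* libraries, which placed it at percentiles 98.3 and 96.1 of all tested genes. *Klf9* was higher by 0.50 and 0.76 and *Sp4* by 0.48 and 0.54 in the same comparison. In all, 8 members were higher in library 2 of both groups, *Klf5* was lower in both, and *Klf15* differed in sign. With the block, which removes such shared differences, the standard error of *Klf10* went from 0.47 to 0.14 and that of *Klf9* from 0.25 to 0.07, and the edgeR adjusted p-values were 0.997 and 0.232, with a log2 fold change of 0.13 for *Klf9*. What the number stands for is not given in the labels. With both libraries numbered 2 left out, a choice made after seeing the data, 3 members passed, *Klf4* (log2 fold change -0.62), *Klf2* (-1.02) and *Sp3* (-0.29) at edgeR adjusted p-values of 0.00241, 0.0162 and 0.0152.

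**Figure D4:**
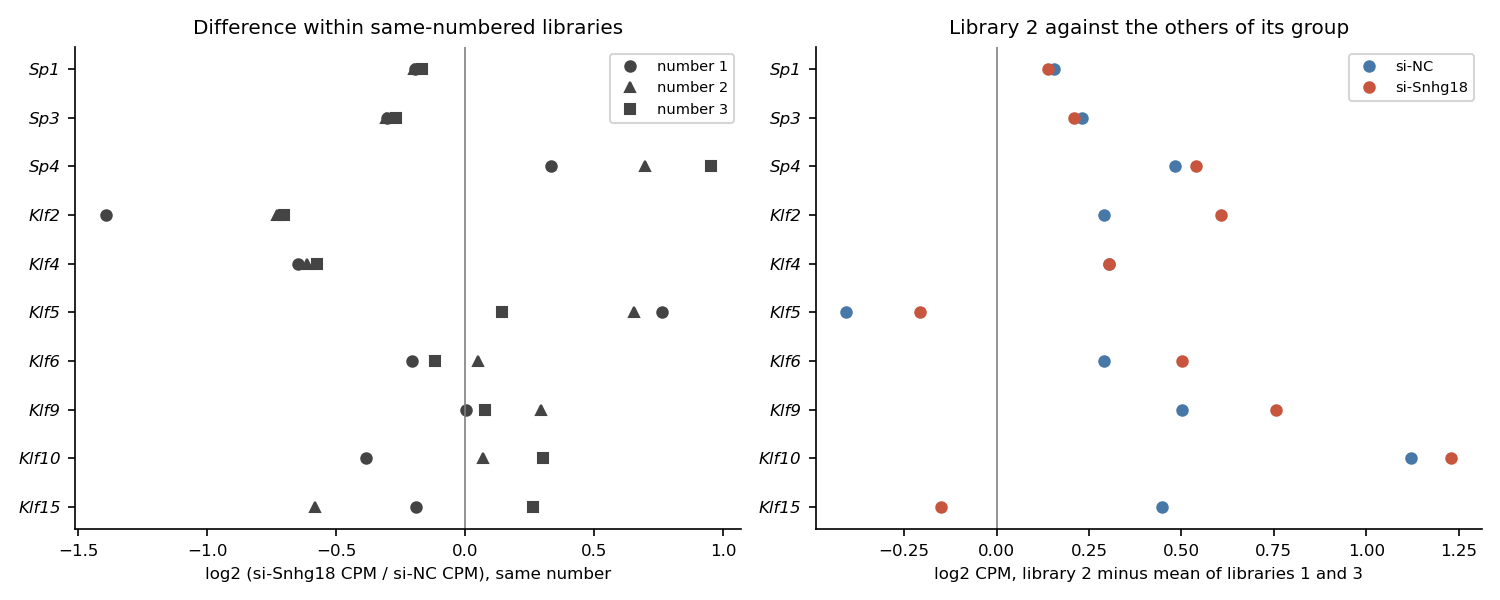
Left, log2 ratio of si-*Snhg18* to si-NC CPM within same-numbered libraries for each member. Right, log2 CPM of library 2 minus the mean of libraries 1 and 3 of its group. *Klf4*, *Sp1* and *Sp3* have nearly equal differences in the 3 pairs, and *Klf10* is displaced by more than 1 in library 2 of both groups.

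Of 16 other SP and KLF genes, 9 had enough reads to be tested and 1 passed. *Klf16*, a GC-box factor that often represses, was at 21, 19.9 and 25.8 CPM in si-NC 1 to 3 and at 14.5, 13.7 and 15 CPM in si-*Snhg18* 1 to 3. The groups did not overlap, and it fell by 0.63 on the log2 scale, at an adjusted p of 0.0389 in edgeR and with a standard error of 0.13. *Klf13* (adjusted p = 0.0975), *Klf7* (0.148) and *Klf12* (0.218) had log2 fold changes of 0.57, 0.63 and -0.65, and passed in the fit with the block at adjusted p-values of 0.00376, 0.0128 and 0.0367. *Klf3*, a repressor that works through CtBP proteins, was at 145 ± 2.23 CPM in si-NC and 140 ± 13.8 CPM in si-*Snhg18* (SD, n = 3 each), and *Sp2* at 17.5 ± 0.65 and 16.3 ± 1.24 CPM, with edgeR adjusted p-values of 0.771 and 0.564. The median log2 fold change of the 9 tested genes was -0.05, with 4 above 0 and 5 below. *Sp8* and *Klf17* had 0 reads in all libraries, which at the floor of 3 reads allows up to between 0.115 and 0.166 CPM per library, a limit for counting error only. *Sp6*, *Sp7*, *Sp9*, *Klf1* and *Klf14* were not tested, with no more than 13 reads in any library.

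**Figure D5:**
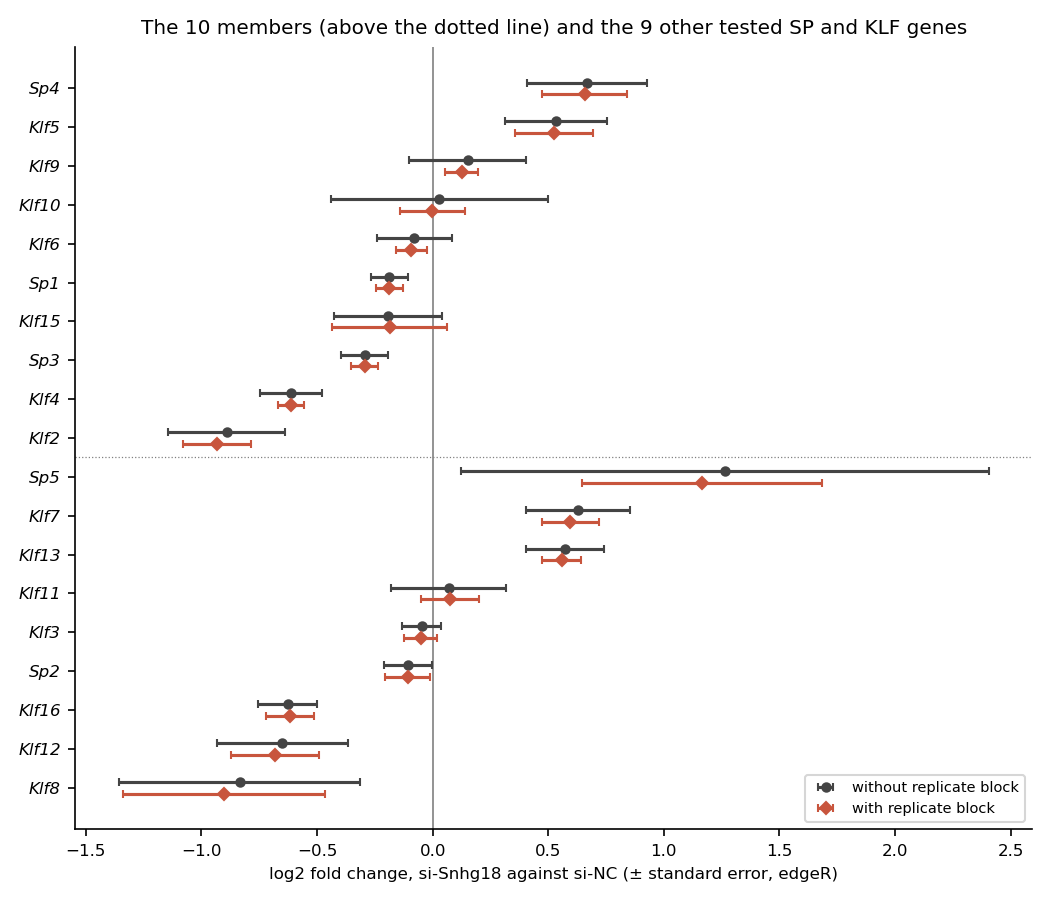
Log2 fold change of each member and of the 9 other tested SP and KLF genes, with its standard error, without (black circles) and with (red diamonds) the replicate block. The block leaves the fold changes almost in place and shortens most error bars, for *Klf10* from 0.47 to 0.14.

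Genes around the family were read from lists and counted against the shares of all tested genes given above, with 3.65% higher. The calls without the block in these lists, and that of *Klf16*, were lost when si-NC 1, si-NC 3 or si-*Snhg18* 3 was left out, since 0 genes then passed in edgeR, with 2512, 2731 and 2464 at an unadjusted p under 0.05. The call of *Klf16* was also lost without si-NC 2 and without si-*Snhg18* 1. Without si-*Snhg18* 2 the number of genes that passed was larger, 1545 higher and 1737 lower. Of 21 cofactors of Sp1 and the KLF proteins, 2 rose and 0 fell, with a median log2 fold change of 0.17. *Nfya*, a subunit of the CCAAT-binding complex that pairs with Sp1 at promoters, rose from 49.2 ± 2.33 to 71 ± 6.02 CPM, and *Ctbp1*, a corepressor recruited by Klf3 and Klf12, from 196 ± 7.53 to 258 ± 23.9 CPM (± SD, n = 3 each), with edgeR adjusted p-values of 0.0231 and 0.0447. With the block 6 cofactors were higher and 0 lower, against 13.6% of all genes in each direction. Of 11 tested genes listed for the kinase and MEF2 route to *Klf2* and *Klf4*, 1 rose, *Piezo1*, a mechanically gated channel, from 546 ± 53.2 to 826 ± 22.6 CPM (± SD, n = 3 each), with an edgeR adjusted p of 0.0166, and 0 fell, with a list median of 0.03. With the block 2 were higher and 1 was lower, *Nfe2l2*, at a log2 fold change of -0.38 and an edgeR adjusted p of 0.00361. *Nfe2l2* was listed beside the kinase and MEF2 genes, so these counts are not of that route alone. Of 13 TGF-beta and activin genes listed for their ties to *Klf10* and *Klf11*, 1 rose, *Smurf2*, a ubiquitin ligase of the SMAD pathway, from 147 ± 6.19 to 242 ± 8.75 CPM (± SD, n = 3 each), with an edgeR adjusted p of 0.00727. That list had a median of 0.23, and with the block 4 were higher and 1 was lower.

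Of 20 immediate early genes, the class to which *Klf2*, *Klf4*, *Klf6* and *Klf10* also belong, 16 had negative fold changes and 1 passed. Among all 14531 tested genes, 7147 had negative and 7384 positive fold changes. *Nr4a1*, an orphan nuclear receptor, fell from 98.4 ± 2.2 to 63.2 ± 4.68 CPM (± SD over 3 libraries), which is a log2 difference of -0.64 with an edgeR adjusted p of 0.0106, and with the block 7 were lower and 2 higher. The median of the list was -0.20. Of 11 glucocorticoid-responsive genes, tied to *Klf9* and *Klf15*, 1 fell, *Sgk1*, a serum- and glucocorticoid-induced kinase, from 613 ± 21.1 to 437 ± 25 CPM (± SD, n = 3 each), with an edgeR adjusted p of 0.0172. The median of these genes was -0.26, and with the block 4 were lower and 0 higher. Of 18 circadian clock genes, which drive rhythms of *Klf9*, *Klf10* and *Klf15* in other tissues, 1 rose, *Per2*, from 4.12 ± 0.235 to 6.66 ± 0.362 CPM (± SD, n = 3 each), with an edgeR adjusted p of 0.0414. The clock genes had a median of 0.12, and with the block 4 were higher and 0 lower.

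Klf4 is known as a repressor of smooth muscle contractile genes, and those genes were read beside it. Of 18, 1 fell and 0 rose, with 13 negative and 5 positive fold changes and a median of -0.24. The signs of all 14531 tested genes were 7147 negative and 7384 positive. *Tagln*, an actin-binding protein of the contractile state, was at 679, 692 and 681 CPM in si-NC 1 to 3 and at 435, 562 and 445 CPM in si-*Snhg18* 1 to 3, a log2 difference of -0.51 with an edgeR adjusted p of 0.0427 and a standard error of 0.11. With the block 7 contractile genes were lower and 1 higher, against 13.6% of all tested genes in each direction. *Tagln* and *Klf4* were thus both lower in the same libraries. The summed fibroblast markers were also lower in the si-*Snhg18* libraries, with no overlap of the groups, and of the 4 markers 0 passed without the block and *Pdgfra* with it, at a log2 fold change of -0.35 and an edgeR adjusted p of 0.0112. Taken singly, 2 of these markers had positive and 2 negative fold changes, with a median of -0.05, so the sum does not stand for a fall of each marker. Of the epithelial markers *Krt18* was at 7.25, 22.1 and 6.95 CPM in si-NC 1 to 3 and at 0.989, 7.27 and 2.25 CPM in si-*Snhg18* 1 to 3. It was lower in 3 of 3 same-numbered pairs, with edgeR adjusted p-values of 0.226 without and 0.00216 with the block. Their part in these differences was not tested.

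The genes whose profile over the 6 libraries was most like that of a member were found among the 11849 tested genes whose log2 CPM averaged 1 or more, by the root-mean-square difference of log2 CPM after subtraction of each gene's mean. Closest to *Sp1* were *Fbln2* (0.0220), *Zfp110* (0.0221) and *Pcdhga10* (0.0235). Closest to *Klf4* were *Plac8* (0.0601), *Raet1e* (0.0659) and *Hspd1* (0.0659), with log2 fold changes of -0.58, -0.63 and -0.58. These are descriptions of 6 values each.

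GC boxes were also counted in the windows of genes that passed the test. They were present for 79.7% of 413 genes that were higher and 70.8% of 415 that were lower in si-*Snhg18* cells, beside the 68.5% of all tested genes. These shares are a description without a test. Exact stretches of 50 bases shared with annotated transcripts of other genes made up at most 1.26% of the stretches of a member, reached in *Sp3* through its antisense gene *Sp3os*, and 0 genes of the SP or KLF families were among the partners. *Sp3os* itself had between 21 and 58 reads per library against at least 1159 for *Sp3*, and the strand setting of the counting is not stated.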

How the data were processed

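RNA of 6 libraries of mPASMCs was sequenced, and the authors deposited unnormalized whole-number read counts for each gene, with an exon length for each gene, per the file headers on GRCm38.p6. The submitters' processing notes name HISAT2 and mm10, while the counting program, its strand setting and any read filter are not given in the sources used here. Groups and replicate numbers came from the sample titles. In R 4.3.3, edgeR 4.0.16 kept 14531 genes (filterByExpr, minimum count 10), scaled them by TMM and tested them by glmQLFTest after glmQLFit, p-values being adjusted by Benjamini-Hochberg over all of them. A gene was called at an adjusted p under 0.05. Standard errors were derived from the F statistic, and 95% intervals from them. CPM uses TMM factors and log2 CPM a prior count of 2.

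Totals of 18097718 to 25988746 reads set the precision, and a floor of 3 reads covers counting error only. Same-numbered libraries deviated from their group means together, with correlations across genes of 0.41, 0.742 and 0.359 for numbers 1 to 3. Deviations from a group mean cancel out within the group, so these 3 correlations depend on each other. A deviation shared by the libraries numbered 2 alone also raises the other correlations. Libraries of different numbers were not compared. The pairing rests on these values and the labels' numbers, not on a stated shared culture. Ratios within libraries were tested with two-sided exact permutation tests.

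Alternatives were DESeq2 1.42.0, RLE factors, library totals, voom of limma 3.58.1, alone or with sample weights, 2 other low-count filters, other thresholds, the replicate block and leaving out each library. The fits were tested on simulated counts without any difference shared by same-numbered libraries. That test therefore does not show how the fits behave where such differences are present, as in these data. Genes named outside the members were those passing in each list, up to 4 by smallest p. The untested or uncalled family genes given by value, the cell type markers given singly, *Nfe2l2* and *Sp3os* were chosen after their values were seen. The members and lists were chosen with earlier results of these data known. Promoter windows came from RefSeq on GRCm38.p6 and transcripts from the GENCODE annotation of GRCm38. Motif letters and shared 50-base stretches were searched exactly on both strands.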

Additional observations from a re-analysis of the deposited data

How the results depend on the processing

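The number of calls depended on the test and on the libraries. For the 10 members, where 1 passed, 2 did with DESeq2, 2 at an adjusted p under 0.1, 4 with the replicate block, 5 with sample weights in voom and 0 with library totals in place of TMM factors. With each library left out in turn it was between 0 and 3, and it was 3 with both libraries numbered 2 left out, an alternative chosen after seeing the data. It was 0 in edgeR without any of si-NC 1, si-NC 2, si-NC 3, si-*Snhg18* 1 or si-*Snhg18* 3, where 3 members had an unadjusted p under 0.05 in each fit, and 3 without si-*Snhg18* 2. For the other SP and KLF genes, also 1 as reported, the count was 2 with DESeq2, 2 at an adjusted p under 0.1, 4 with the block, 4 with sample weights, between 0 and 4 with a library left out and 3 without both libraries numbered 2. Over all tested genes, 530 were higher and 539 lower as reported. DESeq2 gave 1038 and 1031, sample weights 2912 and 3137, the block 1982 and 1972, an adjusted p under 0.1 991 and 973, a requirement of 1.5-fold 250 and 283, and the fit without both libraries numbered 2 gave 2003 and 2017. Leaving out a library gave between 0 and 1545 higher and between 0 and 1737 lower genes, 0 in both directions without si-NC 1, si-NC 3 or si-*Snhg18* 3, where 2512, 2731 and 2464 genes had an unadjusted p under 0.05 in edgeR. The cause was not tested, beyond the smaller number of libraries in the fits that leave some out.

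*Sp1*, *Sp3*, *Sp4*, *Klf2*, *Klf4* and *Klf5* kept their sign under every alternative run. Of 150 refits of single members, 123 kept the sign and the side of the threshold, 12 newly passed, 6 no longer passed, all 6 of *Klf4*, and 9 changed sign, none of a gene that passed in any fit. The sign changed for *Klf6* (between -0.27 and 0.0219 with a library left out), *Klf9* (between -0.15 and 0.34) and *Klf10* (between -0.51 and 0.51, -0.000761 with the block and -0.0311 without both libraries numbered 2), and for *Klf15* without those libraries (0.0201). The log2 ratio of *Klf10* to *Klf6* lay between -0.16 and 0.37 and that of *Klf15* to *Klf9* between -0.47 and 0.00832 with a library left out, against 0.09 and -0.30. With a library left out, *Klf4* lay between -0.73 and -0.51, *Klf2* between -1.11 and -0.65, *Sp1* between -0.24 and -0.14, *Sp3* between -0.37 and -0.21, *Sp4* between 0.46 and 0.85 and *Klf5* between 0.32 and 0.64. Depth limits *Klf15*, *Sp4* and *Klf5* most, since their counts are the lowest of the members.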
